A study of Mus musculus with 20 samples.

Results

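The genes described here are 39 interferon-stimulated and antigen presentation genes, taken by symbol from a count table of 56748 genes of fasted mouse liver. All 39 were found in the table, and all 39 passed the filter on low counts that left 15669 genes for testing. Interferons are secreted alarm signals against infection. Type I interferons bind a receptor made of IFNAR1 and IFNAR2, and the kinases JAK1 and TYK2 then activate STAT proteins, among them STAT2, which join IRF9 and bind the interferon-stimulated response element (ISRE) of target promoters. Interferon gamma acts at GAS elements and through IRF1, and it is known for raising immunity-related GTPases and the class I antigen presentation genes. Hepatocytes, Kupffer cells and liver endothelium all carry these pathways, and uninfected tissue keeps a low level of many target genes.

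RNA of flash frozen livers was sequenced in 20 libraries, 4 from each of 5 groups of mice, all fasted for 24 h. By their labels, the groups were Cpt1DKO, which lacks Cpt1a and Cpt1b in the liver, Cpt2KO, which lacks Cpt2 there, TKO, which lacks all 3 of these genes, Cpt2PparaDKO, which lacks Cpt2 and Ppara in the liver, and controls with floxed alleles of Cpt1a, Cpt1b and Cpt2 (Control). CPT1 and CPT2 are the enzymes of the carnitine shuttle that carries long-chain fatty acids into mitochondria, and PPARalpha, the product of Ppara, is the nuclear receptor of the fasting lipid programme. The study asked what the loss of each step does to liver transcription, and here that question is put to the interferon genes. The labels name neither the Cre driver nor the ages, and they do not say whether 4 libraries are 4 animals. The p-values set group differences against the spread between these libraries, and some of that spread may be technical. If libraries shared an animal, the p-values would tend to be too small. The single control group carried floxed Cpt1a, Cpt1b and Cpt2 alleles, so mouse line and genotype cannot be told apart in Cpt2PparaDKO, Cpt2KO or Cpt1DKO.

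The depth ran from 14129595 to 20273303 counts for 19 libraries, while Cpt2PparaDKO replicate 1 held 36452673. Cpt1a stood at 155 ± 12.2 CPM in Cpt1DKO and 137 ± 12.7 in TKO, against 1038 ± 76.6 in Control (SD, n = 4 each), where CPM is the count scaled to library size with TMM factors. Cpt2 stood at 131 ± 23.6 CPM in Cpt2KO, 103 ± 11.7 CPM in TKO and 33.9 ± 4.86 CPM in Cpt2PparaDKO, against 249 ± 26.2 in Control, and Ppara at 73.2 ± 12.98 CPM in Cpt2PparaDKO, against 233 ± 46.1 in Control. Cpt1b was near the floor in Control, and stood at 0.881 ± 0.217 CPM in Cpt1DKO, 3.91 ± 1.74 CPM in Cpt2KO and 2.80 ± 0.308 CPM in TKO, against 0.543 ± 0.215 CPM in Control. Its log2 fold change was 0.71 ± 0.41 in Cpt1DKO (edgeR adjusted p = 0.34, not called) and 2.37 ± 0.38 in TKO (0.000111, higher). Loss of Cpt1b was thus not seen in these counts, and from so low a Control level it could hardly be seen. The labels do not say which part of the gene was deleted, and Cpt1DKO and TKO stand for the libraries labelled so. The 6 hepatocyte markers that were found took 78074 to 86572 CPM in Cpt1DKO, 47445 to 75158 CPM in Cpt2KO, 39205 to 69481 CPM in TKO and 35318 to 40659 CPM in Cpt2PparaDKO, against 82352 to 103084 CPM in Control. Cpt2KO replicate 3 and Cpt2PparaDKO replicate 4 had a female pattern (Xist high, Y-linked genes at 1 count or fewer), and the other 18 libraries a male one. Cpt1DKO replicate 2 was the lowest library of its group for 33 of 39 members, and Cpt2PparaDKO replicate 4 the lowest of its group for 24.

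The promoters are shown first, since the ISRE is the element that defines type I interferon target genes. RefSeq promoter windows on GRCm38.p6, from 250 bases before to 50 bases after the start of transcription, were matched by symbol to 29 of the 39 members. The letters GAAANNGAAA, the core of the ISRE, were searched on both strands, with overlapping matches counted. They were present for 16 of the 29 members (55.2%), against 1079 of all 27025 genes with a window (3.99%). The GAS letters TTCNNNGAA, searched the same way, were present for 7 of the 29 members (24.1%), against 9.55% of all genes. Windows of Isg15 (chr4:156200769-156201068, minus strand), Ifit1 (chr19:34640639-34640938, plus strand), Irgm1 (chr11:48871371-48871670, minus strand), B2m (chr2:122147437-122147736, plus strand) and Tap1 (chr17:34187306-34187605, plus strand) are printed 5′ to 3′ along the gene. They run from 3 overlapping ISRE cores to none, for genes whose levels are followed through the text, and capitals mark the ISRE cores on either strand.
Isg15: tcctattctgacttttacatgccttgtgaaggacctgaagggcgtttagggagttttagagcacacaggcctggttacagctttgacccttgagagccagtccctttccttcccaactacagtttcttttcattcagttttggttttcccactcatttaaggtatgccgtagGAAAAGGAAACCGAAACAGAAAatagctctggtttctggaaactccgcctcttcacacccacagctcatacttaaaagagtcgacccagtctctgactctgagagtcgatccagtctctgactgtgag
Ifit1: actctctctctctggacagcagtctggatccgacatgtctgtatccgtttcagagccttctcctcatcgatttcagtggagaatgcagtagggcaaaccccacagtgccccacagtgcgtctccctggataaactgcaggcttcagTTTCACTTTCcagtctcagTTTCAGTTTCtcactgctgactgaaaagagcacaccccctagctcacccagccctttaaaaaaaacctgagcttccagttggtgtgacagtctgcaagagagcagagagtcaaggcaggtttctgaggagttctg
Irgm1: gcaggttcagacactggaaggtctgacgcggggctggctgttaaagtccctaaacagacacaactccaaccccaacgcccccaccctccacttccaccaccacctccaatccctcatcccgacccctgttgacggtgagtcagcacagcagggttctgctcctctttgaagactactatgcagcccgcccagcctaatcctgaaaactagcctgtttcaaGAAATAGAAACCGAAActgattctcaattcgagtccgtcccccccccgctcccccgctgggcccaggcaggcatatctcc
B2m: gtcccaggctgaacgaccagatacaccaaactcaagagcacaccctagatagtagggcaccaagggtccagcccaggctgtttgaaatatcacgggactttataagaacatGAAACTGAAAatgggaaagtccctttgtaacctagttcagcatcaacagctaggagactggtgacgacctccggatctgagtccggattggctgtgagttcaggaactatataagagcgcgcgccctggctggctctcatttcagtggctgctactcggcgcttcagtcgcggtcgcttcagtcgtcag
Tap1: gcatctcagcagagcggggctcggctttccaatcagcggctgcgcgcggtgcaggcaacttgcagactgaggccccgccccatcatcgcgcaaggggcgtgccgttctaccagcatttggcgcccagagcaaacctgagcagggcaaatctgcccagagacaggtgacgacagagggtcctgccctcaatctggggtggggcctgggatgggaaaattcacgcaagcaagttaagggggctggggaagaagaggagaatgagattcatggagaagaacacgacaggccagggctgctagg
The first bases of the cores lay 78, 72 and 66 bases before the start in Isg15, 104 and 85 bases before it in Ifit1, 30 and 24 before it in Irgm1, and 139 before it in B2m. All 5 GTPase genes with a window held the core, as did 8 of 15 effectors, 1 of 4 signalling genes and 1 of 2 sensors. A match is a description of letters, and no match says only that these letters are not in this window.

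On a per-length scale, in the FPKM values that the authors deposited, B2m stood far above the other members in Control at 1666 ± 99.99 FPKM (SD, n = 4). Bst2 followed at 96.9 ± 4.22, Ifi27 at 54.4 ± 10.3, Iigp1 at 47.5 ± 7.13 and Lgals3bp at 32.3 ± 7.01 FPKM. Ifi27 and Iigp1 differed by less than their spread, while B2m and Bst2 did not. Most classical antiviral genes were low: Isg15 stood at 11.4 ± 2.71 FPKM, Ifit1 at 5.04 ± 1.08, Mx1 at 0.933 ± 0.283 and, as the lowest member, Oas3 at 0.185 ± 0.0713. Members near 1 FPKM rest on few reads.

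Most members were called lower than Control in Cpt2KO and in the libraries labelled TKO, and fewer in those labelled Cpt1DKO and in Cpt2PparaDKO. In Cpt2KO against Control 31 members fell and 1 rose (edgeR's quasi-likelihood test with Benjamini-Hochberg adjustment over all genes, adjusted p under 0.05), where 17.2% of all tested genes were called lower and 16.2% higher (33.4% in either direction). The median log2 fold change of the 39 was -1.16, against -0.01 over all genes, and 28 members had all 4 Cpt2KO libraries below all 4 Control libraries (16.3% of all genes did). In TKO against Control 28 members fell and 1 rose, where 14.4% of all genes were called lower and 13% higher (27.4% in either direction), and the median of the members was -1.05. In a bulk tissue, fewer cells of a type and less RNA per cell cannot be told apart.

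**Figure D1:**
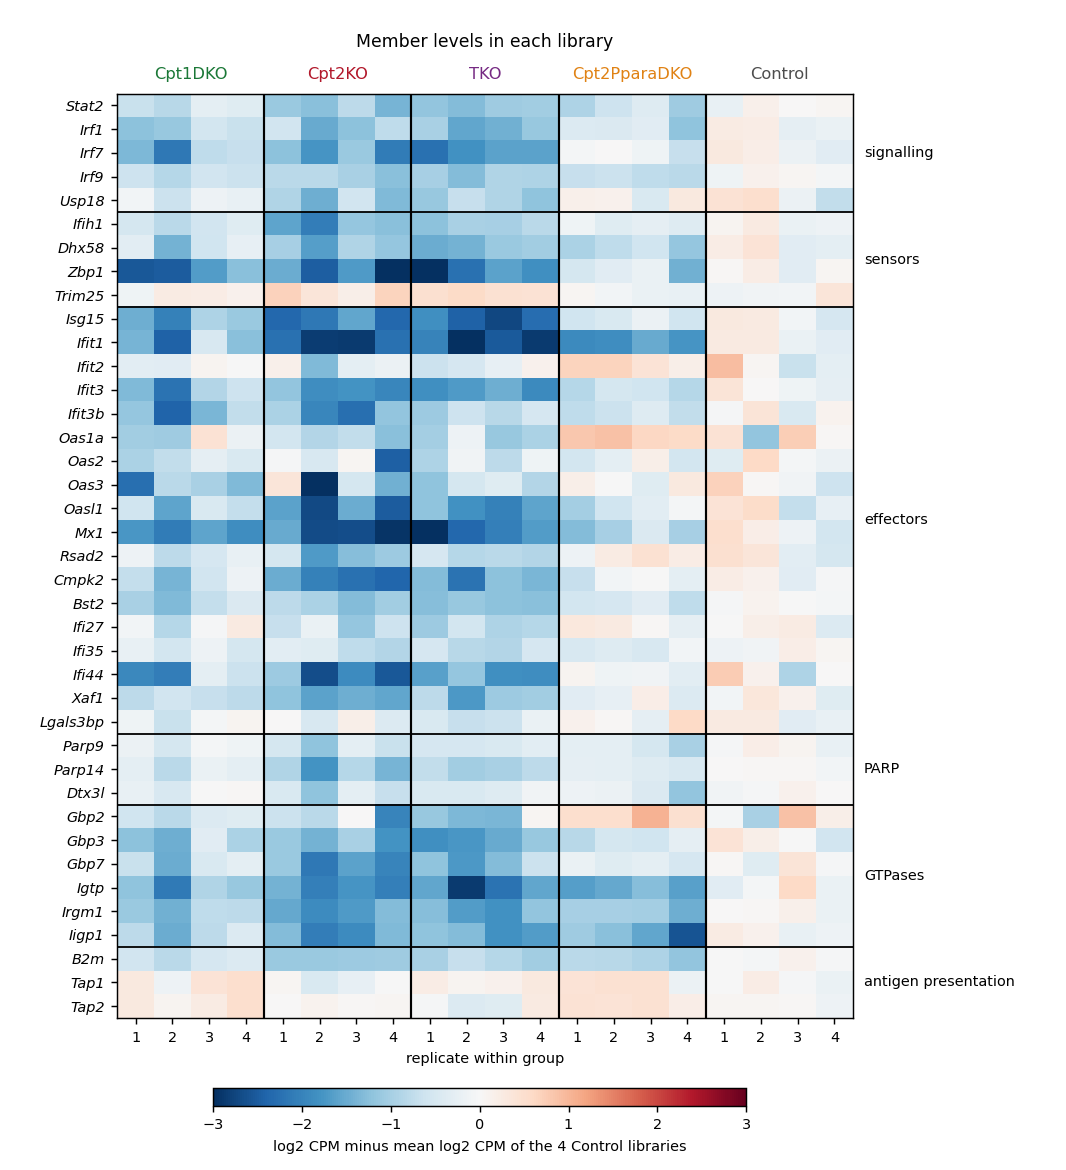
Level of each of the 39 members (rows, by role) in each of the 20 libraries (columns, by group), as log2 CPM minus the mean log2 CPM of the 4 Control libraries, blue where lower and red where higher. Blue fills most of the Cpt2KO and TKO columns, Cpt1DKO replicate 2 is darker than the other Cpt1DKO libraries, and the Trim25, Tap1 and Tap2 rows are pale or turn red.

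In Cpt1DKO against Control 16 members fell and 0 rose, where 3.1% of all genes were called lower and 2.44% higher. The median was -0.67, against -0.01 over all genes, and 20 members had all 4 Cpt1DKO libraries below all 4 Control libraries (9.62% of all genes did). Leaving out Cpt1DKO replicate 2 gave 8 calls, and leaving out Cpt1DKO replicate 1 or Control replicate 2 gave 9. All of these were lower. In the order named, 0.911%, 0.834% and 1.52% of all genes were called lower in these fits. In Cpt2PparaDKO against Control 12 members fell and 1 rose, where 17.6% of all genes were called lower and 14.9% higher, and the median was -0.36. On library totals without TMM factors the Cpt2PparaDKO split was 9 higher and 5 lower, with a median of 0.12 against 0.48 over all genes. Of all genes 47.5% were called higher and 6.48% lower on that scaling. Dropping the factors shifts all genes of a library alike, so the gap between members and median gene could hardly change. That the members were below the median gene on both scalings is therefore no second result. The direction of single small changes in Cpt2PparaDKO depends on the scaling. The 4 contrasts share the same Control libraries, so their values stand side by side and are not independent.

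**Figure D2:**
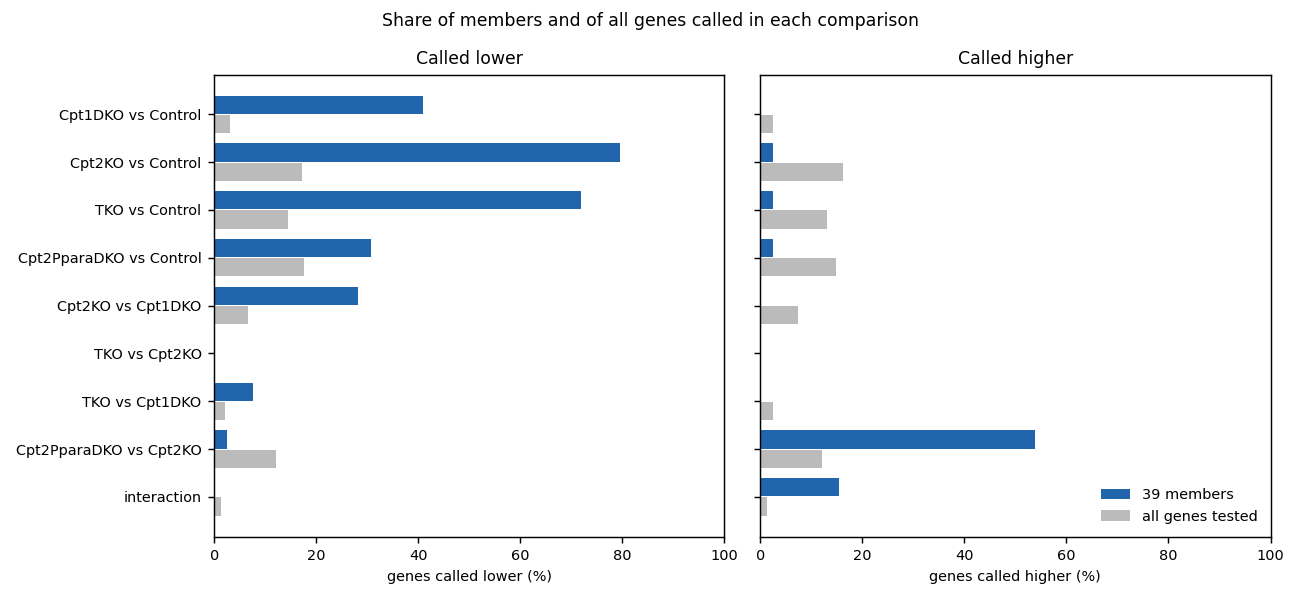
Percentage of the 39 members (blue) and of all tested genes (grey) called lower (left) or higher (right) at an adjusted p under 0.05 in each comparison; the last row is the change in TKO against Cpt1DKO minus that in Cpt2KO against Control. The blue bars exceed the grey ones for lower calls in the contrasts with Control and for higher calls in Cpt2PparaDKO against Cpt2KO.

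The signalling genes carry the interferon signal to the nucleus and restrain it, and all 5 fell in Cpt2KO and in TKO. Irf7, the transcription factor that amplifies the type I response (ENSMUSG00000025498, chromosome 7, 140842619 to 140846394, minus strand, GRCm39), had 14.7, 8.50, 22.03 and 23.4 CPM in Cpt1DKO, 15.9, 11.03, 17.4 and 8.76 CPM in Cpt2KO and 7.999, 10.6, 12.4 and 12.3 CPM in TKO. It had 36.2, 37.7, 34.6 and 23.2 CPM in Cpt2PparaDKO, against 46.2, 43.2, 33.5 and 29.8 CPM in Control. Each Cpt1DKO, Cpt2KO and TKO library lay below each Control library, and the Cpt2PparaDKO range overlapped the Control range. The log2 fold change against Control was -1.15 ± 0.27 in Cpt1DKO (SE; edgeR adjusted p = 0.0178), -1.52 ± 0.27 in Cpt2KO (0.000284) and -1.81 ± 0.28 in TKO (9.3e-05). In Cpt2PparaDKO it was -0.21 ± 0.26 (edgeR adjusted p = 0.571), which was not called. The call in Cpt1DKO was lost without Cpt1DKO replicate 1 or 2 or Control replicate 2. Irf7 overlaps the opposite-strand gene Phrf1 by 45 bases.

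Irf9 and Stat2 encode parts of the complex that type I interferons activate, and both were called lower in Cpt2PparaDKO as well. Irf9 had 29.5, 25.04, 30.7 and 29.4 CPM in Cpt1DKO, 25.9, 26.1, 23.4 and 19.1 CPM in Cpt2KO, 23.03, 18.5, 24.3 and 23.9 CPM in TKO and 28.4, 29.2, 26.8 and 26.2 CPM in Cpt2PparaDKO, against 41.7, 49.7, 47.4 and 44.1 CPM in Control. Every library of the mutant groups lay below every Control library, with log2 fold changes of -0.67 ± 0.12 for Cpt1DKO, -0.95 ± 0.12 for Cpt2KO, -1.03 ± 0.12 for TKO and -0.73 ± 0.11 for Cpt2PparaDKO (edgeR adjusted p = 0.00167, 3.3e-06, 3.0e-06 and 7.7e-05). Stat2 had 50.9, 44.98, 66.2 and 63.1 CPM in Cpt1DKO, 37.5, 33.6, 46.8 and 30.6 CPM in Cpt2KO, 35.5, 32.96, 38.8 and 38.9 CPM in TKO and 42.2, 52.3, 61.5 and 38.3 CPM in Cpt2PparaDKO, against 69.1, 89.6, 81.3 and 84.2 CPM in Control. It fell in Cpt2KO (-1.13 ± 0.16, edgeR adjusted p = 1.6e-05), TKO (-1.15 ± 0.16, 2.2e-05) and Cpt2PparaDKO (-0.74 ± 0.16, 0.00108), and missed the threshold in Cpt1DKO (-0.53 ± 0.16, 0.05031). On library totals the Cpt2PparaDKO calls of Irf9 and Stat2 were lost. The spans of Irf9 and of Rnf31 on the same strand overlap by 123 bases.

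Irf1 is the transcription factor most tied to interferon gamma, and Usp18 encodes the protease that removes ISG15 and blocks the type I receptor. Irf1 had 11.4, 12.2, 18.4 and 17.02 CPM in Cpt1DKO, 17.9, 9.38, 11.4 and 15.9 CPM in Cpt2KO, 13.8, 9.10, 9.89 and 12.2 CPM in TKO and 20.4, 20.02, 21.3 and 11.6 CPM in Cpt2PparaDKO, against 31.7, 31.1, 22.4 and 23.6 CPM in Control. The libraries of every mutant group lay below those of Control, and it fell in Cpt1DKO (-0.89 ± 0.22, edgeR adjusted p = 0.0229), Cpt2KO (-0.998 ± 0.22, 0.00156) and TKO (-1.27 ± 0.22, 0.000274). In Cpt2PparaDKO it was at -0.57 ± 0.22 (edgeR adjusted p = 0.0505, not called), and the Cpt1DKO call was lost without Cpt1DKO replicate 1 or 2 or Control replicate 1 or 2. Usp18 had 14.6, 9.74, 13.9 and 13.2 CPM in Cpt1DKO, 8.23, 5.59, 10.3 and 6.11 CPM in Cpt2KO, 6.97, 9.50, 8.21 and 6.68 CPM in TKO and 16.9, 16.9, 11.2 and 18.9 CPM in Cpt2PparaDKO, against 20.6, 21.8, 13.5 and 9.13 CPM in Control. Control replicate 4 lay within the Cpt2KO and TKO ranges, and Usp18 fell in both groups by the test (-1.11 ± 0.25, edgeR adjusted p = 0.00154, and -1.05 ± 0.25, 0.00292). In Cpt1DKO and Cpt2PparaDKO Usp18 stood at -0.34 ± 0.24 and -0.02 ± 0.24, neither called.

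The sensors of foreign nucleic acid fell in Cpt2KO and TKO, apart from Trim25. Ifih1, which encodes the long double-stranded RNA sensor MDA5 (ENSMUSG00000026896, chromosome 2, 62426142 to 62476599, minus strand, GRCm39), had 27.3, 22.5, 26.7 and 30.8 CPM in Cpt1DKO, 13.2, 9.43, 17.8 and 16.7 CPM in Cpt2KO, 16.8, 20.2, 19.97 and 22.7 CPM in TKO and 35.97, 30.8, 32.8 and 30.5 CPM in Cpt2PparaDKO, against 41.6, 48.1, 34.7 and 35.6 CPM in Control. The Cpt2KO libraries lay below all Cpt1DKO libraries as well as all Control libraries, and overlapped the TKO range. It fell by 0.58 in Cpt1DKO, by 1.49 in Cpt2KO and by 1.002 in TKO on the log2 scale (edgeR adjusted p = 0.0374, 1.2e-06 and 0.000112), and was at -0.30 ± 0.16 in Cpt2PparaDKO (not called). In Cpt1DKO the call of Ifih1 was lost without any 1 of Cpt1DKO replicates 1, 2 and 3 or of the 4 Control libraries. Zbp1, whose product senses Z-form nucleic acid and can trigger necroptosis, had 1.26, 1.31, 2.31 and 3.10 CPM in Cpt1DKO, 2.63, 1.33, 2.28 and 0.923 CPM in Cpt2KO, 0.667, 1.55, 2.43 and 2.06 CPM in TKO and 5.13, 5.795, 6.45 and 2.72 CPM in Cpt2PparaDKO, against 7.57, 8.64, 5.82 and 7.72 CPM in Control. All 12 libraries of Cpt1DKO, Cpt2KO and TKO lay below the lowest Control library, with log2 fold changes of -1.89 ± 0.37, -2.06 ± 0.37 and -2.13 ± 0.37 (edgeR adjusted p = 0.00481, 0.000234 and 0.000252).

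Dhx58 encodes LGP2, a regulator of the RNA sensors, and had 9.73, 4.51, 8.06 and 10.3 CPM in Cpt1DKO, 6.07, 3.89, 6.52 and 5.42 CPM in Cpt2KO, 4.30, 4.52, 5.64 and 5.90 CPM in TKO and 6.28, 7.13, 7.995 and 5.43 CPM in Cpt2PparaDKO, against 14.2, 16.1, 9.64 and 9.95 CPM in Control. It fell in Cpt2KO (-1.19 ± 0.24, edgeR adjusted p = 0.000567), TKO (-1.28 ± 0.24, 0.000397) and Cpt2PparaDKO (-0.89 ± 0.23, 0.00534), and was at -0.61 ± 0.23 in Cpt1DKO. The Cpt2PparaDKO call was lost on library totals. Trim25, a ubiquitin ligase that activates the sensor RIG-I, was the member that rose in Cpt2KO and in TKO. Its libraries had 127, 163, 161 and 152 CPM in Cpt1DKO, 225, 178, 157 and 221 CPM in Cpt2KO, 194, 205, 192 and 188 CPM in TKO and 144, 131, 121 and 118 CPM in Cpt2PparaDKO, against 124, 128, 130.4 and 178 CPM in Control. All TKO libraries lay above all Control libraries, while in Cpt2KO 1 library lay below the highest Control library. The rise was 0.48 ± 0.14 in Cpt2KO (edgeR adjusted p = 0.00877) and 0.47 ± 0.14 in TKO (0.0119). In Cpt2PparaDKO Trim25 was at -0.12 ± 0.13, and at 0.36 with an adjusted p of 0.031 on library totals without TMM factors.

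The effectors, many of whose products block viral replication, held the steepest fall in Cpt2KO, in TKO and in Cpt2PparaDKO, and none of the 18 rose against Control in any group. In Cpt1DKO 7 of 18 fell, in Cpt2KO 14, in TKO 12 and in Cpt2PparaDKO 4, with medians of -0.77, -1.32, -1.03 and -0.30. Of all tested genes 3.1% were called lower for Cpt1DKO, 17.2% for Cpt2KO, 14.4% for TKO and 17.6% for Cpt2PparaDKO, and the effectors' count in Cpt2PparaDKO is near that share. Isg15, a ubiquitin-like protein that is joined to target proteins (ENSMUSG00000035692, chromosome 4, 156283912 to 156285253, minus strand, GRCm39), had 2.91, 1.96, 4.23 and 3.72 CPM in Cpt1DKO, 1.55, 1.81, 2.71 and 1.56 CPM in Cpt2KO and 2.24, 1.48, 1.21 and 1.65 CPM in TKO. It had 5.27, 5.84, 7.11 and 5.28 CPM in Cpt2PparaDKO, against 9.84, 9.65, 7.56 and 5.68 CPM in Control. The highest Cpt1DKO, Cpt2KO and TKO libraries lay below the lowest Control library, while 2 Cpt2PparaDKO libraries lay above it. Isg15 fell in Cpt1DKO (-1.35 ± 0.25, edgeR adjusted p = 0.00348), Cpt2KO (-2.09 ± 0.26, 4.8e-06) and TKO (-2.31 ± 0.27, 3.4e-06), and was at -0.48 ± 0.24 in Cpt2PparaDKO (0.135).

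**Figure D3:**
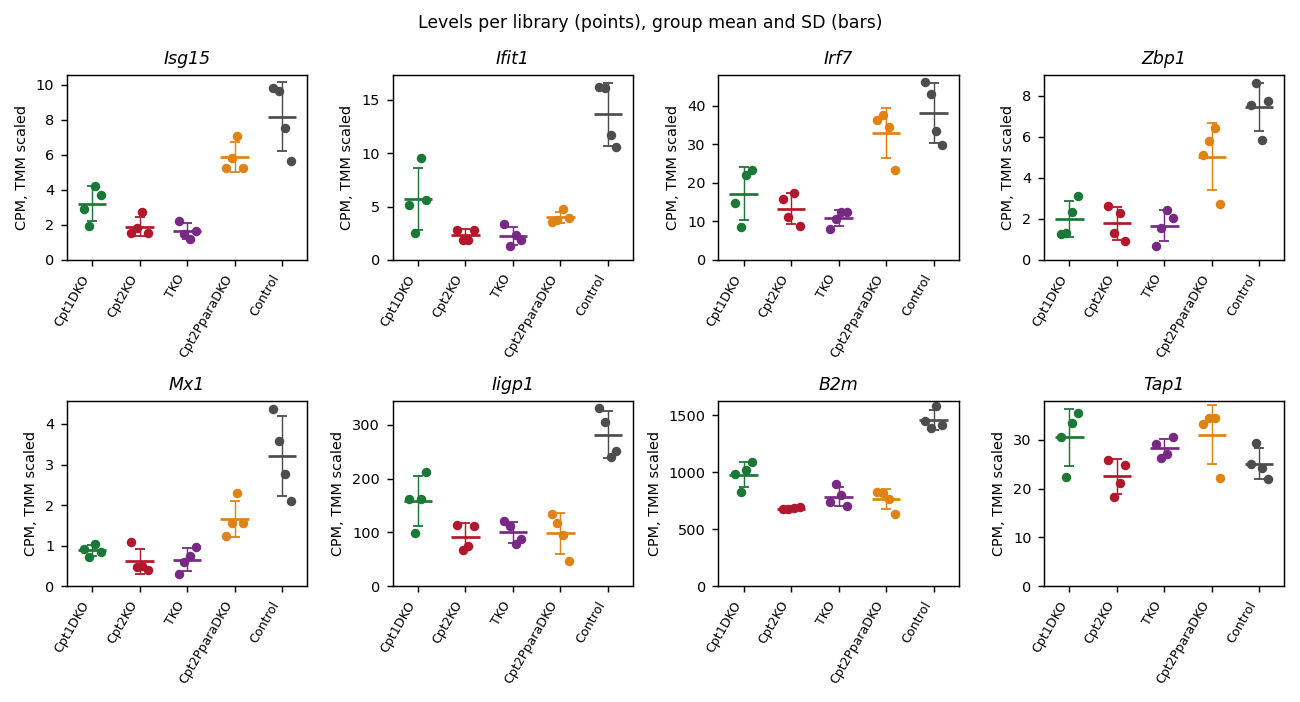
CPM of 8 members in each library (points; linear axes that start at 0), with the group mean and SD as bars, for Cpt1DKO, Cpt2KO, TKO, Cpt2PparaDKO and Control from left to right. In Cpt2PparaDKO the libraries of Isg15, Irf7 and Zbp1 overlap those of Control, those of Ifit1, Iigp1 and B2m lie below them, and Tap1 shows overlapping groups.

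Ifit1 (ENSMUSG00000034459, chromosome 19, 34618271 to 34627409, plus strand, GRCm39) encodes a protein that binds viral RNA lacking the host cap methylation. Ifit1 had 5.10, 2.48, 9.58 and 5.64 CPM in Cpt1DKO, 2.83, 1.86, 1.85 and 2.83 CPM in Cpt2KO and 3.33, 1.35, 2.33 and 1.83 CPM in TKO. It had 3.55, 3.70, 4.72 and 3.92 CPM in Cpt2PparaDKO, against 16.2, 16.1, 11.7 and 10.5 CPM in Control. No library of a mutant group reached the lowest Control library, and the gap held in Cpt2PparaDKO. Its falls were -1.27 ± 0.30 in Cpt1DKO (edgeR adjusted p = 0.0168), -2.55 ± 0.32 in Cpt2KO (4.4e-06), -2.62 ± 0.32 in TKO (5.8e-06) and -1.78 ± 0.30 in Cpt2PparaDKO (0.000142), the steepest called fall among members in Cpt2KO, TKO and Cpt2PparaDKO. Without Cpt1DKO replicate 1 or 2 or Control replicate 2 the Cpt1DKO call was lost.

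Ifit3 and Ifit3b are near-identical neighbours on chromosome 19, so reads may have been split between them and each value is uncertain. Ifit3 had 4.04, 2.16, 5.43 and 6.48 CPM in Cpt1DKO, 4.45, 2.77, 2.88 and 2.59 CPM in Cpt2KO, 2.79, 3.10, 3.64 and 2.65 CPM in TKO and 5.55, 6.999, 6.59 and 5.59 CPM in Cpt2PparaDKO, against 13.1, 10.2, 9.15 and 8.31 CPM in Control. Its mutant libraries lay below all Control libraries, and it fell in all 4 contrasts (-1.17 ± 0.25 for Cpt1DKO, -1.69 ± 0.26 for Cpt2KO, -1.74 ± 0.26 for TKO and -0.72 ± 0.25 for Cpt2PparaDKO; edgeR adjusted p = 0.00952, 4.2e-05, 4.7e-05 and 0.028). The last of these calls was lost without Cpt2PparaDKO replicate 1 or 4 or Control replicate 1 or 2, and without both libraries of female pattern. Ifit3b had 0.927, 0.392, 0.798 and 1.24 CPM in Cpt1DKO, 1.08, 0.533, 0.434 and 0.923 CPM in Cpt2KO, 0.970, 1.35, 1.17 and 1.46 CPM in TKO and 1.22, 1.34, 1.59 and 1.24 CPM in Cpt2PparaDKO, against 2.05, 2.70, 1.53 and 2.22 CPM in Control. It fell in Cpt1DKO (-1.32 ± 0.33, edgeR adjusted p = 0.0232) and Cpt2KO (-1.53 ± 0.34, 0.00137), and was at -0.77 ± 0.32 in TKO (0.076). The Cpt1DKO call of Ifit3b was lost without Cpt1DKO replicate 1 or 2 or Control replicate 2 or 4.

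Mx1 encodes a GTPase that traps viral nucleocapsids, and its gene is known to be disrupted in many laboratory mouse strains. Mx1 had 0.927, 0.719, 1.04 and 0.845 CPM in Cpt1DKO, 1.08, 0.480, 0.489 and 0.404 CPM in Cpt2KO and 0.303, 0.607, 0.746 and 0.961 CPM in TKO. It had 1.25, 1.56, 2.29 and 1.55 CPM in Cpt2PparaDKO, against 4.37, 3.58, 2.77 and 2.11 CPM in Control. All Cpt1DKO, Cpt2KO and TKO libraries were below all Control libraries, at levels of few reads. The falls were -1.86 ± 0.35 in Cpt1DKO (edgeR adjusted p = 0.00357), -2.40 ± 0.36 in Cpt2KO (3.5e-05) and -2.26 ± 0.35 in TKO (8.5e-05). In Cpt2PparaDKO the fall of -0.96 ± 0.32 (0.0276) was lost without Cpt2PparaDKO replicate 1, 2 or 4 or Control replicate 1 or 2, and also with sex as a term.

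Oas1a, of the family that makes the 2-5A activator of RNase L, had 1.19, 1.18, 3.35 and 2.20 CPM in Cpt1DKO, 1.69, 1.33, 1.47 and 1.04 CPM in Cpt2KO, 1.21, 2.22, 1.12 and 1.28 CPM in TKO and 4.28, 4.50, 3.79 and 3.65 CPM in Cpt2PparaDKO, against 3.32, 1.08, 4.09 and 2.52 CPM in Control. Control replicate 2 was as low as the Cpt2KO libraries, and the fall of -0.996 ± 0.36 in Cpt2KO (edgeR adjusted p = 0.0392) was lost in 6 of 8 fits that left out a library. Those libraries were Cpt2KO replicates 2, 3 and 4 and Control replicates 1, 3 and 4. Rsad2, which encodes viperin, a maker of chain-terminating nucleotides, had 10.6, 6.86, 8.22 and 10.03 CPM in Cpt1DKO, 8.10, 3.62, 4.83 and 5.54 CPM in Cpt2KO, 8.24, 6.47, 6.72 and 6.36 CPM in TKO and 10.5, 13.9, 16.04 and 13.8 CPM in Cpt2PparaDKO, against 16.4, 15.2, 9.43 and 8.13 CPM in Control. It fell in Cpt2KO (-1.16 ± 0.24, edgeR adjusted p = 0.000818) and in TKO (-0.82 ± 0.24, 0.0127), and the TKO call was lost without Control replicate 1 or 2. The Oas1 genes are a family of close copies, so the Oas1a value is uncertain.

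Bst2, or tetherin, holds budding virions at the cell surface and had 45.6, 35.8, 54.4 and 65.5 CPM in Cpt1DKO, 51.5, 45.8, 36.00 and 43.1 CPM in Cpt2KO, 36.8, 40.2, 38.3 and 37.3 CPM in TKO and 61.2, 62.8, 70.7 and 52.2 CPM in Cpt2PparaDKO, against 87.1, 95.1, 88.1 and 86.1 CPM in Control. Its Control libraries were tight and lay above every mutant library. The falls were -0.82 ± 0.14 for Cpt1DKO, -1.01 ± 0.14 for Cpt2KO, -1.22 ± 0.15 for TKO and -0.53 ± 0.14 for Cpt2PparaDKO (edgeR adjusted p = 0.00202, 2.0e-05, 5.0e-06 and 0.00727), the last not called on library totals. Ifi27, a mitochondrial protein gene strongly induced by type I interferon, had 75.6, 44.00, 77.6 and 97.1 CPM in Cpt1DKO, 49.5, 70.1, 36.00 and 51.95 CPM in Cpt2KO, 37.5, 54.8, 41.99 and 44.6 CPM in TKO and 100.01, 96.7, 81.9 and 66.8 CPM in Cpt2PparaDKO, against 79.7, 90.99, 94.5 and 60.2 CPM in Control. It fell in TKO (-0.86 ± 0.22, edgeR adjusted p = 0.0059), where all libraries lay below Control, and in Cpt2KO (-0.65 ± 0.22, 0.0274), where the ranges overlapped and the call was lost without Cpt2KO replicate 1, 3 or 4 or Control replicate 2 or 3. Lgals3bp, a secreted glycoprotein gene, had 84.1, 58.3, 88.8 and 97.4 CPM in Cpt1DKO, 93.3, 65.5, 103 and 69.3 CPM in Cpt2KO, 67.3, 56.95, 59.1 and 79.5 CPM in TKO and 101, 94.9, 76.8 and 139.6 CPM in Cpt2PparaDKO, against 111, 111, 72.7 and 79.2 CPM in Control. Its groups overlapped in every contrast with Control, and it was called in none (-0.19 ± 0.20, -0.18 ± 0.20, -0.51 ± 0.20 and 0.14 ± 0.20).

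Among the other effectors, Oasl1, Cmpk2, Ifi44, Xaf1 and Ifi35 fell in Cpt2KO and in TKO. Oasl1, a repressor of Irf7 translation, was at -2.07 ± 0.33 in Cpt2KO (edgeR adjusted p = 5.8e-05) and -1.72 ± 0.32 in TKO (0.000422). Cmpk2, a mitochondrial nucleotide kinase gene beside Rsad2 on chromosome 12, averaged 1.42 ± 0.417 CPM in Cpt2KO and 2.03 ± 0.556 CPM in TKO, against 5.73 ± 0.926 CPM in Control. Ifi44 averaged 0.808 ± 0.433 CPM in Cpt2KO and 0.995 ± 0.244 CPM in TKO, against 3.27 ± 1.46 CPM in Control. Ifit2, Oas2 and Oas3 were called in no contrast with Control, with log2 fold changes of -0.45, -0.50 and -0.81 in Cpt2KO.

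The PARP group holds Parp9 and Parp14, which encode ADP-ribosyltransferase family members, and Dtx3l, the ubiquitin ligase that pairs with PARP9. Parp14 had 34.6, 24.3, 37.3 and 34.99 CPM in Cpt1DKO, 22.7, 12.4, 23.7 and 16.3 CPM in Cpt2KO, 25.6, 20.8, 21.6 and 24.6 CPM in TKO and 35.6, 34.7, 32.5 and 30.9 CPM in Cpt2PparaDKO, against 43.1, 43.6, 44.03 and 40.1 CPM in Control. The Control libraries were tight, every mutant library lay below them, and Parp14 fell in Cpt2KO (-1.19 ± 0.16, edgeR adjusted p = 1.3e-05) and TKO (-0.88 ± 0.16, 0.00038). In Cpt1DKO and Cpt2PparaDKO it was at -0.38 ± 0.16 and -0.35 ± 0.16, neither called. Parp9 fell in Cpt2KO (-0.65), TKO (-0.45) and Cpt2PparaDKO (-0.50), and Dtx3l in Cpt2KO (-0.63). The TKO call of Parp9 was lost without any 1 library of either group other than Control replicate 4, and its Cpt2PparaDKO call without Cpt2PparaDKO replicate 3 or 4 or Control replicate 2 or 3. The Dtx3l call was lost without Cpt2KO replicate 2. Parp9 and Dtx3l lie head to head and their spans overlap by 682 bases on opposite strands, so without a stated strand setting their reads may be mixed.

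The GTPases, which attack the vacuoles of intracellular pathogens and are classical targets of interferon gamma, hold 3 immunity-related GTPases and 3 guanylate-binding proteins. The immunity-related GTPases Igtp, Irgm1 and Iigp1 fell in Cpt2KO, TKO and Cpt2PparaDKO. Irgm1, a regulator of the family (ENSMUSG00000046879, chromosome 11, 48752795 to 48762510, minus strand, GRCm39), had 23.7, 19.2, 30.6 and 29.9 CPM in Cpt1DKO, 17.9, 13.96, 16.02 and 20.8 CPM in Cpt2KO, 21.3, 16.04, 14.7 and 22.8 CPM in TKO and 25.8, 25.8, 25.5 and 18.7 CPM in Cpt2PparaDKO, against 52.2, 52.7, 57.00 and 45.3 CPM in Control. The highest library of any mutant group lay below the lowest Control library. The falls were -1.003 ± 0.17 for Cpt1DKO, -1.59 ± 0.17 for Cpt2KO, -1.47 ± 0.17 for TKO and -1.11 ± 0.17 for Cpt2PparaDKO (edgeR adjusted p = 0.00151, 9.2e-07, 3.8e-06 and 4.9e-05). Iigp1, an effector that loads onto the vacuole, had 161, 98.9, 162 and 212 CPM in Cpt1DKO, 114, 66.7, 75.5 and 112 CPM in Cpt2KO, 121, 113, 79.1 and 87.1 CPM in TKO and 134, 118, 95.1 and 46.1 CPM in Cpt2PparaDKO, against 330.4, 306, 240.3 and 252 CPM in Control. All 16 mutant libraries were lower than the 4 Control libraries, with the lowest in Cpt2PparaDKO replicate 4. Iigp1 fell in Cpt2KO (-1.61 ± 0.28, edgeR adjusted p = 0.000219), TKO (-1.497 ± 0.28, 0.000599) and Cpt2PparaDKO (-1.52 ± 0.28, 0.000444), and was at -0.83 ± 0.28 in Cpt1DKO (0.0835).

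Igtp, a regulator in the same family as Irgm1, had 14.5, 7.71, 17.8 and 15.05 CPM in Cpt1DKO, 12.6, 8.10, 9.83 and 8.01 CPM in Cpt2KO, 11.4, 4.58, 7.14 and 11.4 CPM in TKO and 10.6, 11.5, 13.8 and 10.9 CPM in Cpt2PparaDKO, against 26.3, 31.9, 50.6 and 29.1 CPM in Control. It fell in Cpt1DKO (-1.33 ± 0.27, edgeR adjusted p = 0.00788), Cpt2KO (-1.84 ± 0.28, 5.1e-05), TKO (-1.99 ± 0.28, 3.8e-05) and Cpt2PparaDKO (-1.56 ± 0.27, 0.000259), with no overlap between any mutant group and Control. Igtp shares 7974 bases of its span with Irgm2 on the same strand, so its count is uncertain. Of the guanylate-binding proteins, Gbp3 and Gbp7 fell in Cpt2KO (-1.33 and -1.68) and in TKO (-1.56 and -1.18). Gbp3 also fell in Cpt1DKO (-0.98, edgeR adjusted p = 0.0267), a call that held without Cpt1DKO replicate 3 or Control replicate 4 and was lost without any other library. Gbp2 had 2.71, 2.35, 3.11 and 3.21 CPM in Cpt1DKO, 2.63, 2.34, 4.18 and 1.04 CPM in Cpt2KO, 1.88, 1.62, 1.59 and 4.30 CPM in TKO and 5.81, 5.84, 8.46 and 5.74 CPM in Cpt2PparaDKO, against 3.93, 2.09, 7.56 and 4.62 CPM in Control. Its Control libraries spread widely, the groups overlapped in each contrast with Control, and it was called in none. Gbp genes are close copies of each other, which makes their counts uncertain.

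Of the antigen presentation members, B2m fell in all 4 groups while the transporter genes Tap1 and Tap2 did not. B2m encodes beta-2-microglobulin, the invariant chain of class I molecules (ENSMUSG00000060802, chromosome 2, 121978167 to 121983564, plus strand, GRCm39). It had 983, 826, 1020.3 and 1092 CPM in Cpt1DKO, 675, 676, 683 and 694 CPM in Cpt2KO and 740.4, 896, 800.5 and 704 CPM in TKO. It had 826, 820.5, 768 and 636 CPM in Cpt2PparaDKO, against 1450.0, 1389, 1581 and 1416 CPM in Control. No mutant library reached the Control range, and the Cpt2KO libraries lay within a narrow band. The falls were -0.57 ± 0.12 for Cpt1DKO, -1.10 ± 0.13 for Cpt2KO, -0.89 ± 0.13 for TKO and -0.94 ± 0.13 for Cpt2PparaDKO (edgeR adjusted p = 0.00974, 1.9e-06, 2.7e-05 and 1.4e-05). The Cpt1DKO call of B2m was lost without Cpt1DKO replicate 2.

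Tap1 and Tap2 form the pump that moves peptides into the endoplasmic reticulum. Tap1 had 30.6, 22.4, 33.4 and 35.6 CPM in Cpt1DKO, 25.98, 18.2, 21.1 and 24.9 CPM in Cpt2KO, 29.1, 26.4, 27.2 and 30.5 CPM in TKO and 33.2, 34.5, 34.6 and 22.2 CPM in Cpt2PparaDKO, against 24.99, 29.4, 24.3 and 21.9 CPM in Control. Its groups overlapped in every contrast with Control and it was called in none, at 0.28 ± 0.16, -0.16 ± 0.16, 0.17 ± 0.16 and 0.31 ± 0.16. Tap2 had 18.9, 16.1, 18.2 and 21.8 CPM in Cpt1DKO, 15.4, 16.6, 15.7 and 15.9 CPM in Cpt2KO, 14.9, 11.5, 11.99 and 18.4 CPM in TKO and 20.6, 20.2, 20.99 and 17.5 CPM in Cpt2PparaDKO, against 16.1, 16.1, 15.6 and 13.7 CPM in Control. All Cpt2PparaDKO libraries lay above all Control libraries, and Tap2 rose there by 0.37 ± 0.14 (edgeR adjusted p = 0.041). That call was lost without Cpt2PparaDKO replicate 1, 2 or 3 or Control replicate 1, 3 or 4. The Cpt1DKO libraries lay above Control too, without a call. In Cpt1DKO, Cpt2KO and TKO Tap2 was at 0.29 ± 0.14, 0.05 ± 0.14 and -0.11 ± 0.14. Tap1 and Psmb9 overlap by 212 bases on opposite strands.

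**Figure D4:**
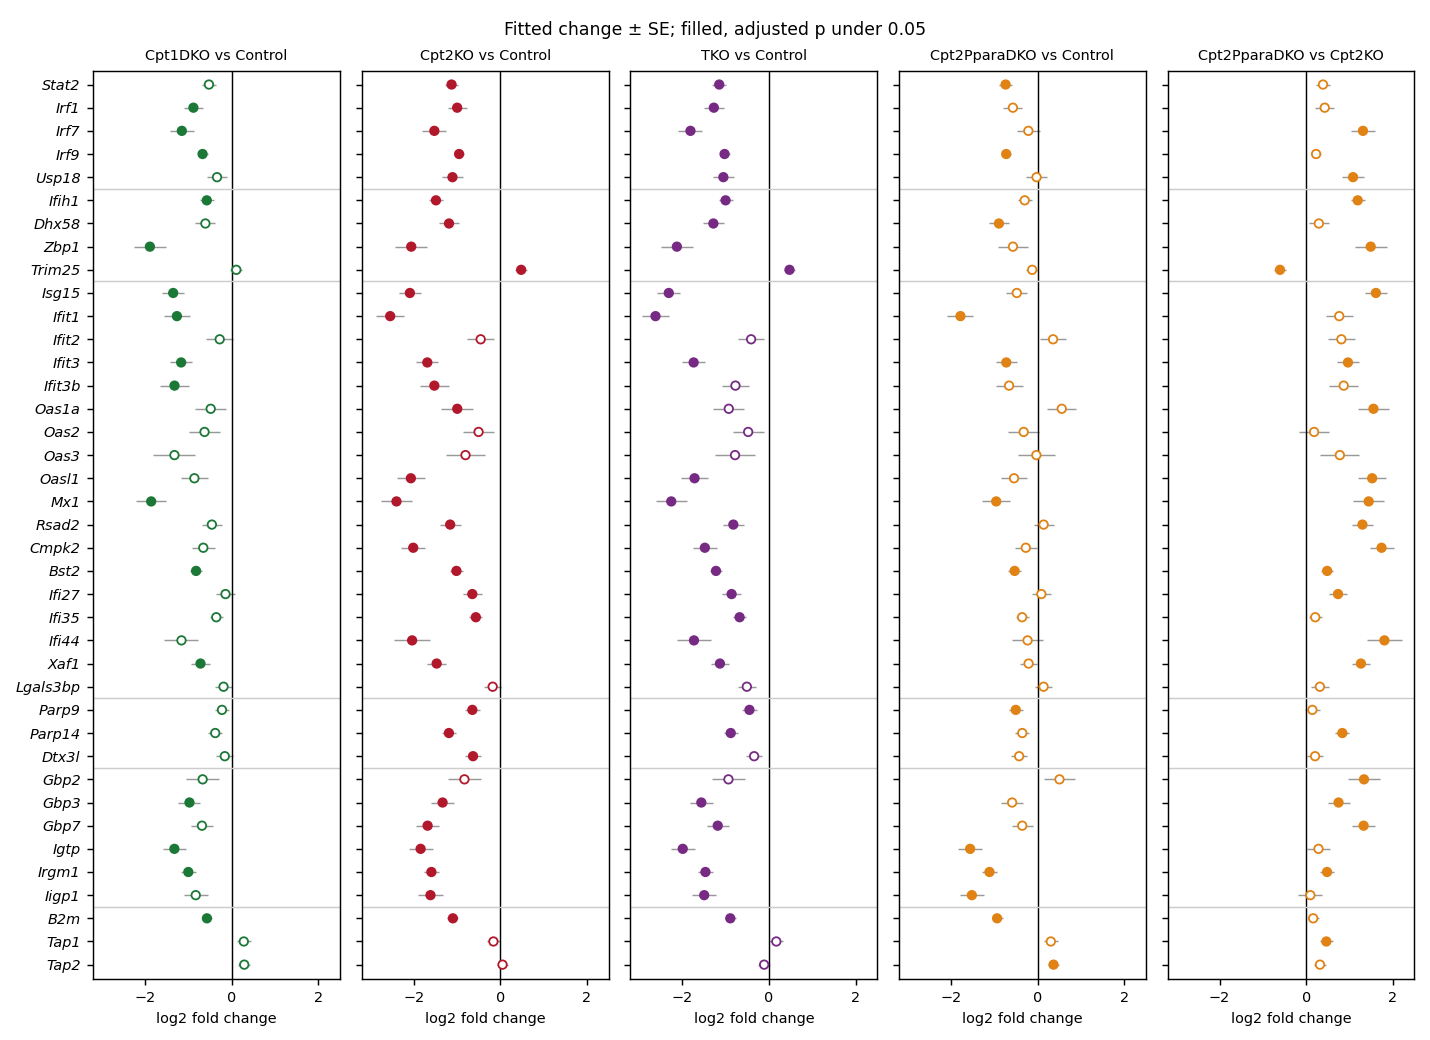
Log2 fold change of each member (rows, by role) with its SE in 5 comparisons, first-named group over second, filled where the adjusted p is under 0.05. Values lie left of 0 for most members in Cpt2KO and TKO against Control, and right of 0 for 38 of 39 in Cpt2PparaDKO against Cpt2KO.

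Many of these genes stood higher in livers labelled as lacking Cpt2 and Ppara than in livers labelled as lacking Cpt2 alone. The remaining Cpt2 RNA was also lower in Cpt2PparaDKO than in Cpt2KO. Loss of Ppara and the level of Cpt2 cannot be told apart in this contrast. In Cpt2PparaDKO against Cpt2KO 21 members rose and 1 fell, where 12.1% of all genes were called higher and 12.2% lower, and the median was 0.76 against 0.01 over all genes. The members with the largest rises were Ifi44 (1.81 ± 0.41, edgeR adjusted p = 0.00252), Cmpk2 (1.74 ± 0.28, 8.7e-05), Isg15 (1.61 ± 0.26, 0.000102), Oas1a (1.55 ± 0.36, 0.00289) and Oasl1 (1.52 ± 0.32, 0.00149). Ifi44 had 3.1996, 2.76, 2.81 and 2.41 CPM in Cpt2PparaDKO, against 1.42, 0.480, 0.814 and 0.519 CPM in Cpt2KO. Cmpk2 had 3.48, 5.35, 5.61 and 4.62 CPM in Cpt2PparaDKO, against 2.02, 1.39, 1.19 and 1.10 CPM in Cpt2KO. For these 5 genes each Cpt2PparaDKO library lay above each Cpt2KO library, which held for 23 members in all (11.4% of all genes). On library totals 31 members rose and 0 fell, where 26.6% of all genes were called higher and 6.36% lower. The median there was 1.03 against 0.29 over all genes.

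By role, and beside the 12.1% of all genes called higher, 11 of 18 effectors, 2 of 5 signalling genes, 2 of 4 sensors, 4 of 6 GTPases, 1 of 3 PARP genes and 1 of 3 antigen presentation genes rose in Cpt2PparaDKO against Cpt2KO. Irf7 was at 1.31 ± 0.27 (edgeR adjusted p = 0.00153), Usp18 at 1.08 ± 0.24 (0.00265), Zbp1 at 1.49 ± 0.37 (0.00529), Ifih1 at 1.19 ± 0.16 (1.5e-05) and Mx1 at 1.44 ± 0.36 (0.00561). Rsad2 was at 1.30 ± 0.24 (0.000413), Gbp2 at 1.34 ± 0.38 (0.0134) and Parp14 at 0.83 ± 0.16 (0.000695). Ifit3 rose by 0.96 ± 0.26 (0.0085). Smaller rises that depended on single libraries were those of Bst2 (0.48), Irgm1 (0.48), Tap1 (0.47), Ifi27 (0.74) and Gbp3 (0.75). Bst2 lost its call without Cpt2KO replicate 3 or Cpt2PparaDKO replicate 3, and Ifi27 without Cpt2KO replicate 3 or Cpt2PparaDKO replicate 1. Gbp3 lost it without Cpt2KO replicate 2 or 4 or Cpt2PparaDKO replicate 2, 3 or 4. Irgm1 lost it without Cpt2KO replicate 1, 2 or 3 or Cpt2PparaDKO replicate 1, 2 or 3, and Tap1 without Cpt2KO replicate 2 or 3 or Cpt2PparaDKO replicate 1, 2 or 3.

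Other members were low in Cpt2KO and were not called between Cpt2PparaDKO and Cpt2KO. Iigp1 averaged 98.4 ± 38.4 CPM in Cpt2PparaDKO and 92.1 ± 24.5 CPM in Cpt2KO (SD, n = 4 each; log2 fold change 0.10 ± 0.27). B2m averaged 763 ± 88.1 CPM in Cpt2PparaDKO and 682 ± 8.71 CPM in Cpt2KO (0.16 ± 0.12). Igtp was at 0.28 ± 0.27, Irf9 at 0.23 ± 0.11, Dhx58 at 0.29 ± 0.24, Stat2 at 0.39 ± 0.16 and Ifit1 at 0.76 ± 0.31, none of them called, with edgeR adjusted p from 0.0747 for Stat2 to 0.839 for Iigp1. A p that misses the threshold does not show equal levels, and for Ifit1 and Irf9 the Cpt2PparaDKO libraries lay above all Cpt2KO libraries. Trim25 fell in Cpt2PparaDKO against Cpt2KO (-0.61 ± 0.14, edgeR adjusted p = 0.00236), as the only member with a value below 0, and lost that call on library totals.

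The knockouts of the shuttle were also set against each other. In Cpt2KO against Cpt1DKO 11 members fell and 0 rose, where 6.71% of all genes were called lower and 7.41% higher, with a median of -0.51. The largest falls were those of Cmpk2 (-1.36 ± 0.28, edgeR adjusted p = 0.00324), Ifit1 (-1.28 ± 0.32, 0.0107), Oasl1 (-1.21 ± 0.33, 0.0178), Gbp7 (-0.99 ± 0.26, 0.0157) and Ifih1 (-0.91 ± 0.16, 0.000991). B2m fell by 0.52 (0.0084) and Parp14 by 0.81 (0.0025) on the log2 scale. The ranges of Ifih1, Cmpk2, Parp14 and B2m did not overlap, with 13.2, 9.43, 17.8 and 16.7 CPM of Ifih1 in Cpt2KO, against 27.3, 22.5, 26.7 and 30.8 CPM in Cpt1DKO. The count depended on single libraries: without Cpt2KO replicate 2 it was 5, without Cpt2KO replicate 4 or Cpt1DKO replicate 4 it was 6, without Cpt1DKO replicate 3 it was 7, and leaving out Cpt1DKO replicate 2 gave 17. In these fits, in the order named, 3.44%, 4.63%, 4.15%, 5.07% and 6.08% of all genes were called lower. Ifih1, Cmpk2, Parp14 and B2m kept their calls in every fit without a library. Ifit1 lost its call without Cpt1DKO replicate 3, Oasl1 without Cpt1DKO replicate 3 or Cpt2KO replicate 2 or 4, and Gbp7 without Cpt1DKO replicate 4 or Cpt2KO replicate 2 or 4. On library totals 8 fell and 1 rose, where 4.5% of all genes were called lower and 10.7% higher.

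In TKO against Cpt1DKO 3 members fell and 0 rose, where 2.06% of all genes were called lower and 2.6% higher (4.65% in either direction). They were Ifit1 (-1.35 ± 0.32, edgeR adjusted p = 0.018), Isg15 (-0.96 ± 0.27, 0.0441) and Stat2 (-0.62 ± 0.16, 0.0265), and the median of the 39 was -0.41. Stat2 had 35.5, 32.96, 38.8 and 38.9 CPM in TKO, against 50.9, 44.98, 66.2 and 63.1 CPM in Cpt1DKO, with no overlap. The count of 3 dropped to 0 when Cpt1DKO replicate 3 was left out and to 1 when Cpt1DKO replicate 4, TKO replicate 2 or TKO replicate 4 was. Leaving out Cpt1DKO replicate 2 gave 11, and leaving out both libraries of female pattern gave 5. In the order named, 0.971%, 0.831%, 2.03%, 1.04%, 2.73% and 4.08% of all genes were called lower in these fits. The Ifit1 call was lost without Cpt1DKO replicate 3 or TKO replicate 4, the Stat2 call without Cpt1DKO replicate 3 or 4 or TKO replicate 1, 2 or 4, and the Isg15 call without any 1 library of these groups other than Cpt1DKO replicate 2 and TKO replicate 1. On library totals 1 fell and 1 rose, where 1.4% of all genes were called lower and 5.66% higher.

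In TKO against Cpt2KO no member was called by edgeR, where 0.0511% of all genes were (0.0319% higher and 0.0191% lower), and DESeq2 also called 0. At an unadjusted p under 0.05 there were 3, and the median was 0.02. Log2 fold changes ran from -0.33 to 0.75, with SEs of 0.116 to 0.470, so changes of that size were not detectable for many members. Isg15 averaged 1.65 ± 0.436 CPM in TKO and 1.91 ± 0.551 CPM in Cpt2KO, and B2m averaged 785 ± 83.8 CPM in TKO and 682 ± 8.71 CPM in Cpt2KO.

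Whether loss of Cpt2 acted alike in the Cpt1DKO and the Control background was tested as an interaction, the change in TKO against Cpt1DKO (as labelled) minus that in Cpt2KO against Control. It was called for 6 members, all positive, where 1.42% of all genes were called positive and 1.28% negative. Irgm1 was at -0.46 ± 0.17 in TKO against Cpt1DKO and at -1.59 ± 0.17 in Cpt2KO against Control, a difference of 1.13 ± 0.24 (edgeR adjusted p = 0.0143). Ifih1 differed by 1.06 ± 0.23 (0.0156), B2m by 0.78 ± 0.18 (0.0216), Ifit3b by 2.07 ± 0.48 (0.0237), Mx1 by 2.003 ± 0.52 (0.0445) and Irf9 by 0.60 ± 0.16 (0.04995). The calls of Irgm1 and Ifih1 held in each fit that left out a library. B2m lost its call without Cpt1DKO replicate 1 or 2 or Control replicate 3, and Ifit3b without Cpt2KO replicate 2 or Control replicate 2. The Mx1 call held when Cpt1DKO replicate 3, Cpt2KO replicate 1, TKO replicate 1 or Control replicate 4 was left out, and was lost for each of the other 12 libraries. The Irf9 call held when Cpt1DKO replicate 3, Cpt2KO replicate 1 or TKO replicate 2 was left out, and was lost for each of the other 13. The count was 3 without Cpt1DKO replicate 1 or 2, Cpt2KO replicate 2 or Control replicate 2 or 3, and 10 without Cpt2KO replicate 1. Of all genes 0.510% to 0.685% were called positive in the fits with 3, and 1.97% in the fit with 10.

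As a description of 29 genes, the median change of members with the ISRE core in the window lay farther from 0 than that of members without it in the 4 contrasts with Control and in Cpt2PparaDKO against Cpt2KO. In Cpt2KO against Control the median was -1.41 for the 16 with the core, of which 14 were called lower, and -0.95 for the 13 without it, of which 9 were called lower. In Cpt2PparaDKO against Cpt2KO the medians were 0.82 and 0.47. The ranges overlapped: Isg15 with 3 cores fell by 2.09 in Cpt2KO on the log2 scale, Ifit1 with 2 by 2.55, Irgm1 with 2 by 1.59 and B2m with 1 by 1.10. Oasl1, with no core in its window, fell by 2.07, and Tap1, without one, was at -0.16.

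The rest of the pathway was read from lists of genes that are not members. None of 10 interferon genes reached the filter, and their summed level was at most 0.539 CPM in any library. Of the 15 receptor and JAK-STAT genes, 2 rose and 3 fell in Cpt2KO, near the shares of all genes (16.2% higher and 17.2% lower), and 3 rose and 5 fell in TKO (13% and 14.4%). The receptor genes differed: Ifnar1 was at -0.06 ± 0.12 and Ifngr1 at 0.07 ± 0.16 in Cpt2KO, while Ifnar2 fell in TKO (-0.48 ± 0.14, edgeR adjusted p = 0.012) and Cpt2PparaDKO (-0.64 ± 0.14, 0.00111). Socs1, a feedback inhibitor, stayed under 1 CPM in each library and was called in no comparison.

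Of 49 other interferon-stimulated genes, 11 fell and 1 rose in Cpt1DKO, 23 fell and 1 rose in Cpt2KO, 26 fell and 1 rose in TKO, and 10 fell and 2 rose in Cpt2PparaDKO, each against Control. In Cpt2PparaDKO against Cpt2KO 21 rose and 0 fell. Of all genes 3.1%, 17.2%, 14.4% and 17.6% were called lower in the contrasts with Control, in the same order, so the Cpt2PparaDKO count is near background, and 12.1% were called higher in Cpt2PparaDKO against Cpt2KO. The medians were -0.51, -0.54, -0.72, -0.06 and 0.63. Ifitm3, an entry inhibitor named after its values were seen, averaged 88.6 ± 18.8 CPM in Cpt1DKO, 63.98 ± 9.09 CPM in Cpt2KO, 62.99 ± 6.70 CPM in TKO and 179 ± 14.9 CPM in Cpt2PparaDKO, against 190.0 ± 14.2 CPM in Control. Of 18 tested sensing genes, 6 fell and 3 rose in Cpt2KO against Control (17.2% and 16.2% of all genes), and 3 fell and 5 rose in Cpt2PparaDKO against Cpt2KO (12.2% and 12.1%). The 3 that rose in Cpt2KO and the 3 that fell in Cpt2PparaDKO are near those shares.

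Of 20 class I presentation genes, 2 fell in Cpt1DKO, 10 in Cpt2KO and 14 in TKO, and none rose, where 3.1%, 17.2% and 14.4% of all genes were called lower. In Cpt2PparaDKO 3 fell and 2 rose against Control, near the shares of all genes (17.6% lower and 14.9% higher). Against Cpt2KO 10 rose and 2 fell, where 12.1% of all genes were called higher and 12.2% lower, so the 2 falls are near background. Psmb8, an immunoproteasome subunit gene, had 12.3, 8.96, 14.5 and 15.9 CPM in Cpt1DKO, 8.97, 11.5, 9.67 and 7.96 CPM in Cpt2KO, 8.18, 10.2, 11.1 and 8.10 CPM in TKO and 17.97, 17.03, 20.7 and 14.7 CPM in Cpt2PparaDKO, against 20.9, 19.1, 23.99 and 17.1 CPM in Control. It fell by 1.09 in Cpt2KO and was 0.88 ± 0.17 higher in Cpt2PparaDKO than in Cpt2KO (edgeR adjusted p = 6.7e-05 and 0.000741). Psmb9, its partner, was at -1.195 ± 0.19 (7.7e-05) and 0.75 ± 0.19 (0.00671). Nlrc5, the activator of class I genes, and the heavy chain gene H2-K1 were lower in Cpt2PparaDKO than in Cpt2KO. Nlrc5 fell to 25.3 ± 1.07 CPM in Cpt2PparaDKO, against 43.4 ± 12.4 CPM in Cpt2KO (-0.78 ± 0.23, edgeR adjusted p = 0.0175). H2-K1 fell to 862 ± 55.3 CPM in Cpt2PparaDKO, against 1264 ± 134 CPM in Cpt2KO (-0.55 ± 0.14, edgeR adjusted p = 0.00567), while H2-D1, a close copy, was at -0.35 ± 0.14. H2 heavy chain genes share reads, so these values are uncertain. The list also holds Calr, Canx and Pdia3, general chaperones of the endoplasmic reticulum, which fell in Cpt2KO and rose in Cpt2PparaDKO against Cpt2KO and were named after their values were seen. Of 8 class II genes none was called in any comparison, and Cd74 averaged 35.6 ± 11.3 CPM in Cpt1DKO, 33.7 ± 19.84 CPM in Cpt2KO, 30.7 ± 14.3 CPM in TKO and 54.3 ± 11.4 CPM in Cpt2PparaDKO, against 51.4 ± 24.4 CPM in Control. All 8 were below 0 in Cpt1DKO, Cpt2KO and TKO against Control, and 7 were above 0 in Cpt2PparaDKO. All 8 were above 0 in Cpt2PparaDKO against Cpt2KO (median 0.69).

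**Figure D5:**
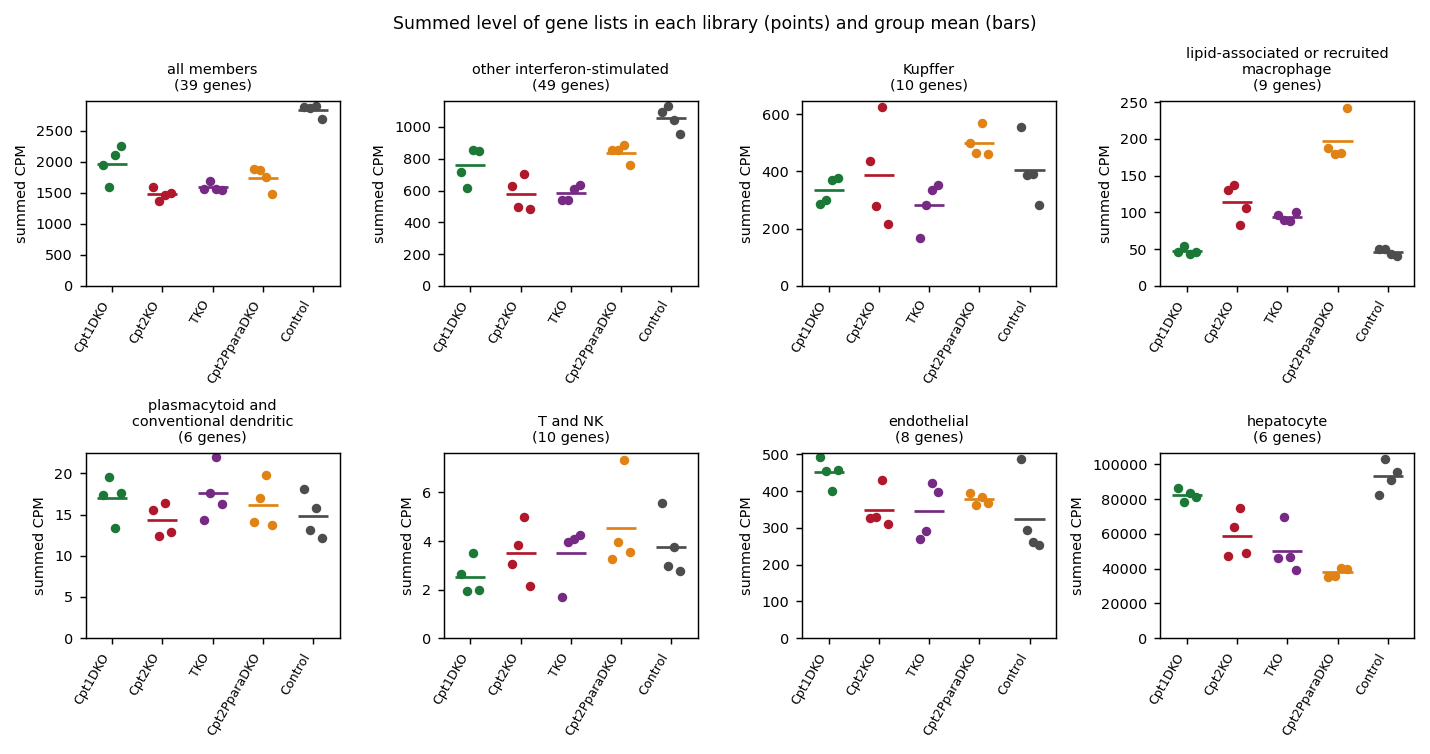
Summed CPM of 8 gene lists in each library (points; axes start at 0) with group means (bars), for Cpt1DKO, Cpt2KO, TKO, Cpt2PparaDKO and Control from left to right; n genes stands in each title. The members and the other interferon-stimulated genes are highest in Control, and B2m gives much of the member sum (1459 of 2842 CPM on average in Control). Dendritic markers overlap between groups. Kupffer markers of each mutant group overlap Control, while those of Cpt2PparaDKO (461 to 569 CPM) lie above all Cpt1DKO (286 to 378 CPM) and TKO (167 to 352 CPM) libraries. Markers of lipid-associated macrophages are highest in Cpt2PparaDKO.

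Markers of the cell types that could carry these genes were read beside them. For scale, 2.44% of all genes were called higher and 3.1% lower in Cpt1DKO against Control. The shares were 16.2% and 17.2% in Cpt2KO, 13% and 14.4% in TKO and 14.9% and 17.6% in Cpt2PparaDKO against Control. In Cpt2PparaDKO against Cpt2KO they were 12.1% and 12.2%. The 10 Kupffer cell markers summed to 286 to 378 CPM in Cpt1DKO, 216 to 623 CPM in Cpt2KO, 167 to 352 CPM in TKO and 461 to 569 CPM in Cpt2PparaDKO, against 282 to 556 CPM in Control. None of the 10 was called in Cpt1DKO, Cpt2KO or Cpt2PparaDKO against Control, and 1 fell in TKO, Clec4f, a lectin gene of resident Kupffer cells (-0.58 ± 0.21, edgeR adjusted p = 0.0442). The 9 markers of lipid-associated or recruited macrophages summed to 43.2 to 53.6 CPM in Cpt1DKO, 82.8 to 137 CPM in Cpt2KO, 88.6 to 100.1 CPM in TKO and 179 to 242 CPM in Cpt2PparaDKO, against 41.3 to 50.4 CPM in Control. Of the 8 tested, 2 rose in Cpt1DKO, 3 rose and 1 fell in Cpt2KO, 3 rose and 1 fell in TKO and 7 rose in Cpt2PparaDKO against Control, and 6 rose in Cpt2PparaDKO against Cpt2KO. The 1 fall in Cpt2KO and the 1 in TKO are near the shares of all genes. Gpnmb, a gene of lipid-laden macrophages, had 2.19, 2.29, 0.798 and 1.47 CPM in Cpt1DKO, 57.02, 38.8, 27.6 and 28.4 CPM in Cpt2KO, 27.6, 21.5, 20.7 and 24.9 CPM in TKO and 46.6, 37.3, 24.4 and 48.1 CPM in Cpt2PparaDKO, against 0.387, 0.540, 0.0693 and 0 CPM in Control. The Gpnmb ranges of Cpt2PparaDKO and Cpt2KO overlapped. The 6 dendritic markers summed to 12.2 to 21.97 CPM over all libraries, and none of the 4 tested was called against Control. T and NK markers summed to 1.70 to 7.34 CPM and B cell markers to 1.504 to 7.39 CPM, with none of the 4 T and NK and 5 B cell markers tested called against Control. Neutrophil markers summed to 0.338 to 4.35 CPM, and of the 2 tested none was called against Control and 1 rose in Cpt2PparaDKO against Cpt2KO, S100a9, named after its values were seen. Ptprc, the pan-leukocyte marker CD45, averaged 7.21 ± 0.139 CPM in Cpt1DKO, 8.54 ± 4.31 CPM in Cpt2KO, 8.99 ± 3.27 CPM in TKO and 15.1 ± 2.03 CPM in Cpt2PparaDKO, against 10.4 ± 3.86 CPM in Control, and was called in no contrast with Control. In Cpt2PparaDKO against Cpt2KO all 10 Kupffer, 4 dendritic and 5 B cell markers tested were above 0 (medians 0.31, 0.55 and 0.81). Of the 4 T and NK markers 2 were, with a median of 0.03. Ptprc was at 0.83 there, and the median of all genes was 0.01. None of these markers was called in that contrast.

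Hepatocyte markers moved with the groups as well: 4 of 6 fell in Cpt2KO, 3 in TKO and 6 in Cpt2PparaDKO against Control, and none in Cpt1DKO. In the same order, 17.2%, 14.4%, 17.6% and 3.1% of all genes were called lower. Alb, the main secreted hepatocyte protein, was at -0.92 ± 0.24 in Cpt2KO, -1.18 ± 0.24 in TKO and -1.61 ± 0.24 in Cpt2PparaDKO (edgeR adjusted p = 0.00504, 0.000939 and 4.9e-05). In Cpt2PparaDKO against Cpt2KO, where 21 members rose, Alb fell by 0.69 and 2 of the 6 hepatocyte markers were called lower (12.2% of all genes were). The 8 endothelial markers, with 1 higher in Cpt1DKO (Pecam1, 0.85 ± 0.23) and none called in the other groups against Control, summed to 401 to 491 CPM in Cpt1DKO, 311 to 431 CPM in Cpt2KO, 270.0 to 423 CPM in TKO and 362 to 394 CPM in Cpt2PparaDKO, against 253 to 487 CPM in Control. Of 7 stellate cell markers, 5 rose in Cpt2PparaDKO against Control, among them Col1a1, a fibrillar collagen gene (1.38 ± 0.27, edgeR adjusted p = 0.000649), and 4 rose against Cpt2KO. The shares of all genes called higher there were 14.9% and 12.1%. The 5 cholangiocyte markers summed to 4.55 to 19.2 CPM in Cpt1DKO, 2.71 to 3.84 CPM in Cpt2KO, 3.39 to 5.32 CPM in TKO and 3.61 to 30.5 CPM in Cpt2PparaDKO, against 6.86 to 12.9 CPM in Control. Of the 4 tested, all were below 0 in Cpt2KO and in TKO against Control (medians -1.19 and -0.87), with 1 called lower in each, Sox9, named after its values were seen. All 4 were above 0 in Cpt2PparaDKO against Cpt2KO (median 1.06), with none called. The part of these cell types in the levels of the members was not tested.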

How the data were processed

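Liver RNA of 20 libraries was sequenced, and the authors deposited a table of gene counts and a table of FPKM values, which scale counts by gene length and a library size. Per the submitters' processing notes, reads were aligned with HISAT2 to GRCm39; the sources used here do not give how reads were counted or with which strand setting. The FPKM values were used for levels between genes only. Members and gene lists were chosen with earlier results of these data known. Genes with a minimum count of 10 (edgeR filterByExpr) were kept, 15669 of 56748, with 1 coefficient per group over all 20 libraries, TMM factors and edgeR 4.0.16 quasi-likelihood tests (R 4.3.3), called at a Benjamini-Hochberg adjusted p under 0.05 over all genes. The biological coefficient of variation was 0.233. Libraries were grouped by their labels. Fold changes are first-named over second-named group, with SE. Named genes are anchors of each role plus the 5 called members with the largest change in each direction per comparison. DESeq2 1.42.0, other size factors, no filter, a replicate block, sex as a term, the compared groups alone, library totals and leaving out each library were alternatives. The procedure was tested on simulated counts. No pair of libraries agreed within sampling noise (lowest chi-square per degree of freedom 12.54).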

Additional observations from a re-analysis of the deposited data

Results flagged for a closer look

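In 195 sets of 4 libraries (39 members in 5 groups), 9 held a library whose gap to the next was large for the range of its group. Chance alone would mark about 5% of such sets, so the number is no more than chance gives. Cpt2KO replicate 1 was high for Ifit3, at 4.45 CPM against 2.59 to 2.88 in the other Cpt2KO libraries, and for Mx1, at 1.08 CPM against 0.404 to 0.489. TKO replicate 2 was high for Oas1a, at 2.22 CPM against 1.12 to 1.28, and TKO replicate 4 for Gbp2, at 4.30 CPM against 1.59 to 1.88. Cpt2PparaDKO replicate 4, a library of female pattern, was low for Irf1, at 11.6 CPM against 20.02 to 21.3, for Irgm1, at 18.7 CPM against 25.5 to 25.8, and for Tap1, at 22.2 CPM against 33.2 to 34.6. Cpt2PparaDKO replicate 3 was high for Gbp2, at 8.46 CPM against 5.74 to 5.84. Control replicate 4 was high for Trim25, at 178.1 CPM against 124 to 130.4.

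For 6 members the change in TKO against Cpt1DKO, as labelled, differed from that in Cpt2KO against Control, by edgeR's test of the difference. The log2 differences were 0.60 for Irf9, 1.06 for Ifih1, 2.07 for Ifit3b, 2.00 for Mx1, 1.13 for Irgm1 and 0.78 for B2m. Each effect was closer to 0, or of the other sign, in TKO against Cpt1DKO: -0.35 against -0.95 for Irf9, -0.43 against -1.49 for Ifih1, 0.55 against -1.53 for Ifit3b, -0.40 against -2.40 for Mx1, -0.46 against -1.59 for Irgm1 and -0.32 against -1.10 for B2m. The Irf9 call stands at an adjusted p of 0.04995 with edgeR.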

How the results depend on the processing

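Counts of called members moved by over 1.5 times only in TKO against Cpt1DKO (3 as reported, 8 with DESeq2, 5 without both libraries of female pattern) and in the interaction (6, against 12 with DESeq2), apart from fits without 1 library. The cause was not tested. These counts take both directions together. In Cpt2PparaDKO against Control the count was 13, and 14 on library totals. The split there went from 1 higher and 12 lower to 9 higher and 5 lower. Leaving out each library gave 8 to 16 calls for Cpt1DKO, 30 to 32 for Cpt2KO, 27 to 29 for TKO and 10 to 13 for Cpt2PparaDKO against Control. It gave 5 to 17 in Cpt2KO against Cpt1DKO, 0 to 11 in TKO against Cpt1DKO, 18 to 25 in Cpt2PparaDKO against Cpt2KO, 0 in TKO against Cpt2KO and 3 to 10 in the interaction. Of the calls, 8 of 16, 29 of 32, 27 of 29 and 9 of 13 against Control were kept in every such fit, as were 17 of 22 in Cpt2PparaDKO against Cpt2KO. On library totals, an alternative chosen after seeing the data, the median of all genes against Control stood at 0.10 for Cpt1DKO and 0.20 for Cpt2KO. It stood at 0.24 for TKO and 0.48 for Cpt2PparaDKO. In Cpt2PparaDKO against Control Trim25 reversed to 0.36, and Irf9, Stat2, Dhx58, Ifit3, Mx1, Bst2 and Parp9 lost their calls. Thinning Cpt2PparaDKO replicate 1 to its group's depth, also added later, gave 13 calls against Control, losing Tap2 and gaining Irf1, and 22 against Cpt2KO. Replicate numbers did not pair the libraries (correlations of deviations -0.153 to 0.233), and with the replicate block the calls were 16, 31, 28 and 12 against Control and 22 in Cpt2PparaDKO against Cpt2KO; it ended the calls of Xaf1 in Cpt1DKO, Oas1a in Cpt2KO, Parp9 in TKO and Tap2 in Cpt2PparaDKO against Control, of Usp18 in Cpt2KO and Isg15 in TKO against Cpt1DKO, and of Irf9 and Mx1 in the interaction, gave one to Stat2 in Cpt1DKO against Control and changed no other member's call. Over all genes, calls numbered 869 in Cpt1DKO against Control, against 1443 with DESeq2, 1442 with the compared groups alone, 1581 without the libraries of female pattern and 288 to 1188 without 1 library. The interaction had 423, against 941 with DESeq2 and 973 without the libraries of female pattern; TKO against Cpt1DKO had 729, against 1266 with DESeq2, 1106 on library totals and 1391 without the libraries of female pattern. Cpt2PparaDKO against Control had 5091, against 8454 on library totals, and TKO against Cpt2KO 8, against 54 with DESeq2 and 16 without the libraries of female pattern. With the compared groups alone Cpt2KO against Cpt1DKO had 1344, against 2212, Cpt2PparaDKO against Cpt2KO 2495, against 3822, and TKO against Cpt2KO 5, against 8. Members under 1 FPKM are limited by depth.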
